A study of Mus musculus with 4 samples.

Results

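The genes described here are the clustered protocadherins, taken as every gene symbol in the count files that starts with *Pcdha*, *Pcdhg*, or *Pcdhb* followed by a digit. The rule found 59 of the 23420 symbols, with 15 in the alpha cluster, 22 in the beta cluster and 22 in the gamma cluster. RNA-seq was compared between cervical motor neurons (MNs) made from wild type (WT) E14 cells, a mouse embryonic stem cell line, and MNs made from Patz1 -/- E14 cells (*Patz1* KO), in which the gene of the zinc finger protein PATZ1 was disrupted with CRISPR/Cas9. Each genotype had 2 libraries, and both genotypes were grown as embryoid bodies and given retinoic acid and a smoothened agonist (SAG), which pattern the cells toward ventral spinal cord. The KO lines of the study were single clones, the labels do not name the clone behind a library, and no step that purified MNs is described, so that each library holds all cells of its culture. The sample titles name ESCs, while the source and cell type fields name MNs, and the libraries were taken as MNs.

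Most clustered protocadherin genes encode cell surface proteins, many of which bind the same isoform on a neighbouring cell with their outer part. Neurons use the combination of isoforms on their surface to tell their own branches from those of others. *Pcdhgb8*, a member of the gamma cluster, is annotated as a transcribed pseudogene. In the alpha and gamma clusters, each member has its own promoter and its own large first exon, which is spliced to constant exons that all members of that cluster share, while beta members are single exon genes. A neuron is known to switch on a small, largely random set of alpha, beta and gamma promoters, a choice in which CTCF and cohesin bring a promoter to distant enhancers, whereas the C-type members at the ends of the alpha and gamma clusters (*Pcdhac1*, *Pcdhac2*, *Pcdhgc3*, *Pcdhgc4* and *Pcdhgc5*) are used more constantly.

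The 3 clusters lie side by side on the plus strand of chromosome 18 of GRCm38 (mm10). The alpha cluster spans 36930285 to 37187657, the beta cluster 37264938 to 37524479 and the gamma cluster 37661793 to 37841873. The constant exons form 3 blocks at the 3′ end of the alpha cluster, from 37156155 to 37187657, with 2860 exon bases, and 3 blocks at the 3′ end of the gamma cluster, from 37825021 to 37841873, with 2119 exon bases. These shared exons hold 53.3% to 54.9% of the annotated exon bases of an alpha member, 41.7% to 45.4% of a gamma A member, 44.8% to 45.9% of a gamma B member and 42.2% to 52.8% of a C-type member. A read that falls wholly in a constant exon cannot be given to one member. featureCounts, the counting program in the submitters' processing notes, leaves such reads out unless told otherwise, and the setting used is not given in the sources used here. The members of 1 cluster also share stretches of sequence outside the constant exons. The share of 50-base stretches of the member-specific exon that occur in another member had a median of 14.9% in the alpha class, 3.48% in the beta cluster, 0.295% in the gamma A class and 11.6% in the gamma B class, and was 0 in all C-type members. Levels of alpha, gamma and C-type members are therefore given per kilobase of the member-specific exon and those of the single exon beta genes per kilobase of their RefSeq length, and how many reads were lost or shared between members was not tested.

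The total count per library was 14769104 to 23881522, and 14269 genes passed edgeR's filter on low counts. *Patz1* had 1363 and 1499 counts in WT, against 1154 and 714 in the KO libraries, with a log2 fold change (*Patz1* KO over WT, as everywhere below) of -1.04, so that transcripts of the targeted gene were reduced but present. Markers of MNs were detected in all libraries, and 8 of 9 were higher in *Patz1* KO, with a summed level of 633.5 to 680.1 CPM (counts scaled to a common library size) in WT and 999.9 to 1100 in *Patz1* KO. Markers of mesenchyme were called lower for 7 of 7 tested (190.4 to 214.8 CPM in WT, 31.3 to 36.9 in *Patz1* KO). Those of primitive endoderm were called lower for 6 of 8 tested (43.5 to 51.7 CPM in WT, 7.63 to 7.83 in *Patz1* KO). Of all tested genes, 24.1% were called higher and 23.8% lower. No marker of these 3 lists was at 0 counts in all libraries. The levels of these markers thus moved with the genotype, and their part in the results below was not tested. In such bulk samples, fewer cells of a type and less RNA per cell cannot be told apart.

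Of the 59 members, 58 had at least 1 count, the highest count was 1418, and 56 were tested. *Pcdha4* had 0 and 0 counts in WT, against 2 and 0 in the KO libraries, at or under the detection limit of 3 counts per library. *Pcdha4-g*, a symbol that could not be placed on the genome, had 0 counts in every library. *Pcdhb1*, whose promoter lacks the sequence element that most other members share, had 10 and 6 counts in WT, against 5 and 2 in the KO libraries. *Pcdhb1* was lower in both *Patz1* KO libraries but too shallow for the filter, and without the filter its log2 fold change was -1.56, with an adjusted p of 0.162 in edgeR's quasi-likelihood test. A gene annotated on the same strand (Gm42416) overlaps the member-specific exon of *Pcdha4*, and reads could have been split with it. Same-strand genes also overlap those of *Pcdha6* (Gm37013) and *Pcdha7* (Gm37388), which had counts in every library.

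In WT MNs, *Pcdhgc3* had the highest level per kilobase of all members, at 16.0 and 16.3 CPM per kb in the 2 libraries, or 16.2 ± 0.202 (SD, n = 2, as for every SD here). *Pcdhb22* followed with 8.97 ± 0.00495, then *Pcdhb17* with 8.11 ± 0.327 and *Pcdhga3* with 7.75 ± 0.27, which overlapped each other between libraries, then *Pcdhb11* with 7.02 ± 0.121 and *Pcdhga7* with 5.75 ± 0.371 CPM per kb. *Pcdhb22* stood above these neighbours in both libraries with RefSeq lengths, but not with the exon lengths of GENCODE, which are longer for some beta genes. GENCODE lengths were an alternative added after the data were seen. On them, the WT level was 4.47 CPM per kb for *Pcdhb22*, 5.69 for *Pcdhb17* and 5.74 for *Pcdhb11*. All of these lay below *Pcdhga3*, while *Pcdhgc3* stayed first. *Pcdhga7*, with 6.01 and 5.49 CPM per kb in the WT libraries, lay above *Pcdhb22* but could not be ordered against *Pcdhb17* and *Pcdhb11*. The medians of the classes in WT were 2.72 CPM per kb for beta (2.44 with GENCODE lengths), 2.71 for gamma A, 2.21 for gamma B, 1.03 for alpha and 0.808 for C-type members, and the C-type class ranged from 0.431 for *Pcdhgc5* to the 16.2 of *Pcdhgc3*. In *Patz1* KO, *Pcdhgc3* remained first with 22.9 ± 0.13 CPM per kb, before *Pcdhb22* with 8.39 ± 1.92, *Pcdhga3* with 6.68 ± 0.0543, *Pcdhb17* with 6.59 ± 0.947 and *Pcdhb11* with 6.07 ± 0.468. *Pcdhb22* and *Pcdhb17* overlapped in *Patz1* KO, with 7.03 to 9.75 and 5.92 to 7.26 CPM per kb. This order too held with RefSeq lengths only. On GENCODE lengths, the *Patz1* KO level was 4.18 CPM per kb for *Pcdhb22*, 4.63 for *Pcdhb17* and 4.96 for *Pcdhb11*. These lay below *Pcdhga3*, while *Pcdhgc3* stayed first. The position of *Pcdhgc4* moved from 36 in WT to 7 in *Patz1* KO and that of *Pcdha12* from 35 to 16, while *Pcdha11* went from 28 to 46 and *Pcdhga8* from 25 to 41, out of 58 members with a length (RefSeq lengths for beta members). Plotted by library, members of 1 cluster spanned a wide range of levels in both genotypes.

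**Figure D1:**
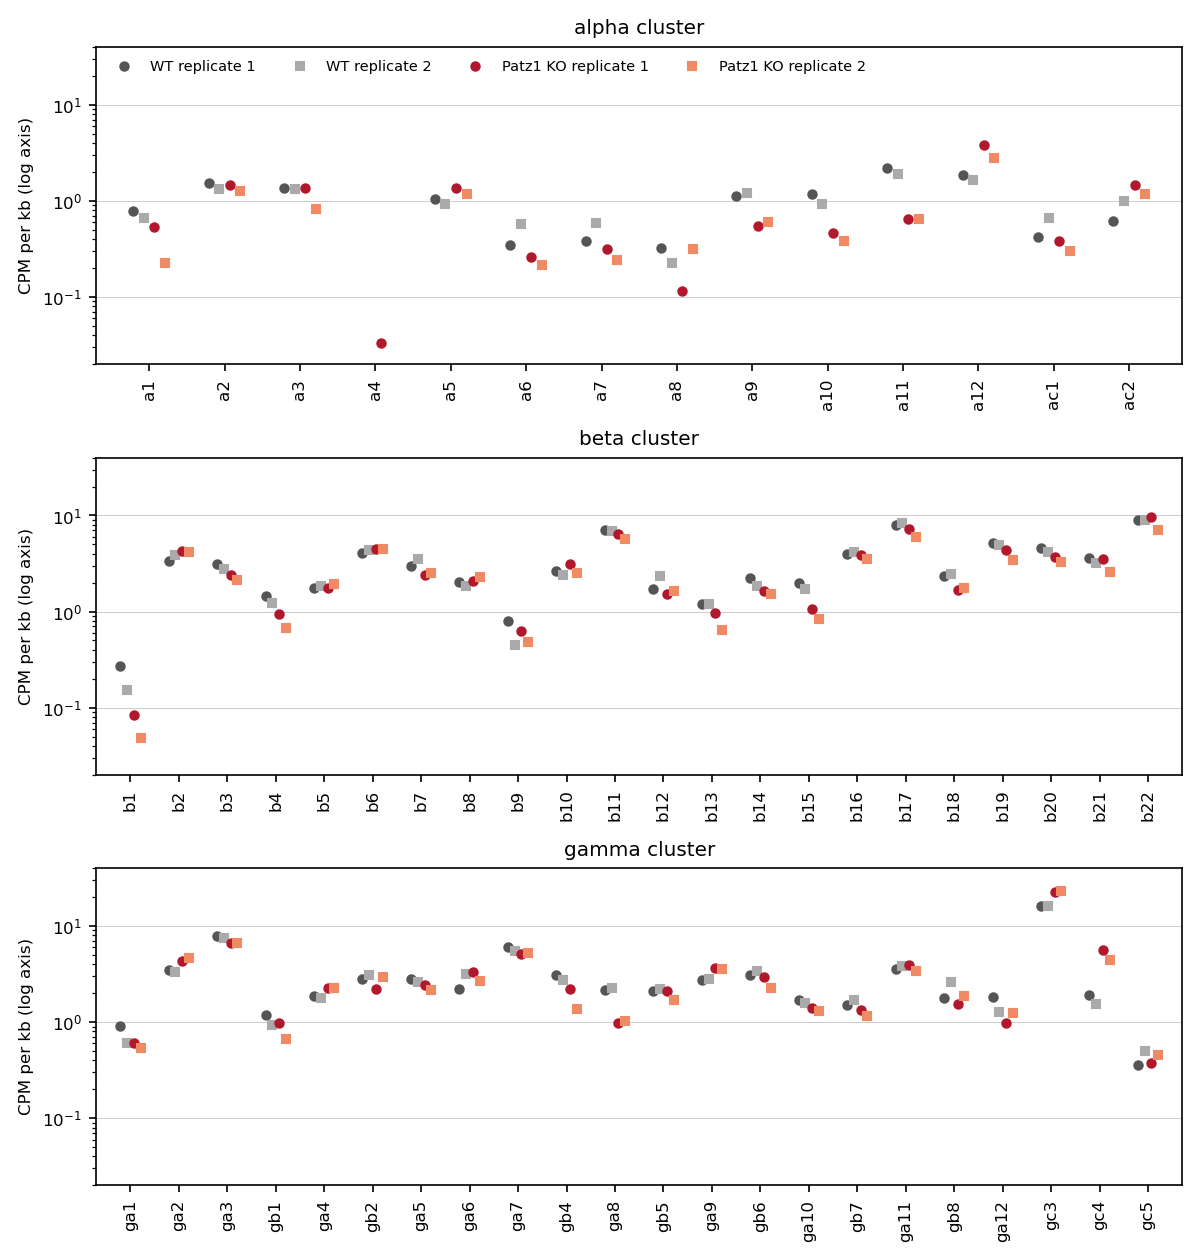
Level of each member in each library, in CPM per kb on a log axis (per kb of member-specific exon, or of the RefSeq gene length for beta members), with members in their order along the alpha, beta and gamma clusters, gray for WT and red or orange for *Patz1* KO (circles for replicate 1, squares for replicate 2). *Pcdhgc3* lies highest, at 16.0 and 16.3 in WT, against 22.8 and 22.9 in *Patz1* KO, and values of 0 (*Pcdha4* in 3 libraries) are not drawn.

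Between genotypes, 15 of the 56 tested members (26.8%) were called at an adjusted p below 0.05, against 47.9% of all tested genes. *Pcdha12*, *Pcdhac2*, *Pcdhga2*, *Pcdhgc3* and *Pcdhgc4* rose in *Patz1* KO, and *Pcdha9*, *Pcdha10*, *Pcdha11*, *Pcdhb4*, *Pcdhb7*, *Pcdhb15*, *Pcdhb18*, *Pcdhb19*, *Pcdhgb4* and *Pcdhga8* fell. The 5 rises compare with 24.1% of all tested genes called higher, and the 10 falls with 23.8% called lower, and these differences from the background were not tested. By class, 3 of 5 C-type members were called, 36.4% of the alpha class, 23.8% of the beta cluster, 16.7% of gamma A and 14.3% of gamma B. Members had fewer reads than most genes, with a median of mean counts of 101.9 against 459 over all tested genes and a median standard error (SE) of the log2 fold change of 0.21 against 0.12. The median log2 fold change of the members was -0.27, against -0.0014 over all tested genes, and 42 members had a value below 0 and 14 above. Both *Patz1* KO libraries lay below both WT libraries for 31 members (37.2% of all tested genes did) and above them for 11 (37.0% of all tested genes). The number of calls differed between fits that left out 1 library, with 3 rises and 3 falls without WT replicate 1, 4 and 5 without WT replicate 2, 4 and 17 without *Patz1* KO replicate 1 and 5 and 8 without *Patz1* KO replicate 2. Calls over all genes moved too, to 33.6% and 30.9% without a WT library and to 49.0% and 53.7% without a *Patz1* KO library. With DESeq2's Wald test, 3 members rose and 4 fell (33.1% of all genes were called). *Pcdha11*, *Pcdha12*, *Pcdhb15*, *Pcdhga8*, *Pcdhgc3* and *Pcdhgc4* were called, in the same direction, under all 13 alternatives.

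**Figure D2:**
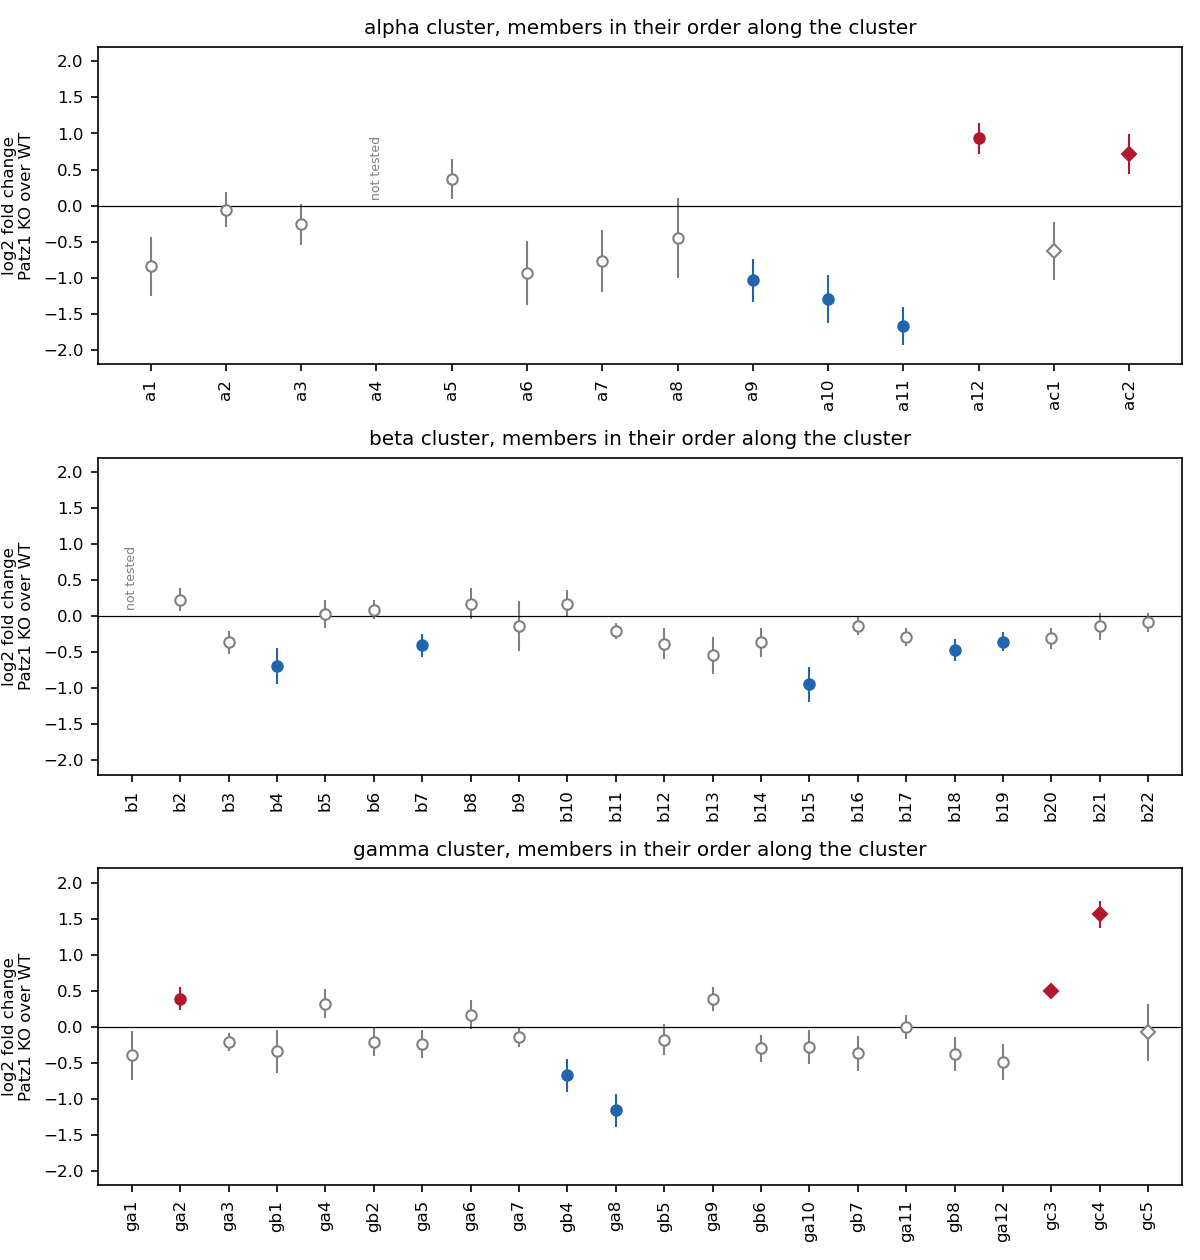
Log2 fold change (*Patz1* KO over WT) of each member with its SE as a bar, in order along each cluster, with red filled symbols for members that rose, blue filled symbols for those that fell, open gray symbols for those not called and diamonds for the C-type. *Pcdhgc4* has the highest value, 1.56, and *Pcdha11* the lowest, -1.67, next to *Pcdha12* at 0.93.

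Among the C-type members, 3 of 5 rose and none fell, against 24.1% of all tested genes called higher and 23.8% lower. Their median log2 fold change was 0.50, and the difference from the background was not tested. *Pcdhgc4*, the gamma isoform known to be needed for the survival of neurons, had 83 and 71 counts in WT, against 400 and 216 in the KO libraries. This was 5.02 ± 0.782 CPM against 14.7 ± 2.56, both *Patz1* KO libraries being well above both WT libraries. Its log2 fold change was 1.56 (SE 0.19, adjusted p = 2.26e-06, quasi-likelihood test of edgeR, Benjamini-Hochberg adjusted over all tested genes, as for all adjusted p given here), the largest rise of all members, and it stayed between 1.37 and 1.73 when any 1 library was left out. *Pcdhgc3*, the most abundant member, had 613 and 666 counts in WT, against 1418 and 989 in the KO libraries, or 41.5 ± 0.518 CPM against 58.7 ± 0.334. The libraries of each genotype differed by little here, and the log2 fold change was 0.50 (SE 0.094, adjusted p = 0.000295). An antisense gene (BC037039) is annotated across *Pcdhgc3*, and since the strand setting of the counting is not given, its reads could be part of this value. *Pcdhac2*, known for its part in the even spacing of serotonergic axons, had 28 and 48 counts in WT, against 108 and 60 in the KO libraries, with a log2 fold change of 0.72 (SE 0.28, adjusted p = 0.0423). The 2 WT libraries of *Pcdhac2* were themselves far apart, at 2.45 ± 0.805 CPM, and the call was lost without WT replicate 1 (log2 fold change 0.42, adjusted p = 0.389), without *Patz1* KO replicate 1 (0.54, adjusted p = 0.149), after all libraries were thinned at random to the depth of the smallest (adjusted p = 0.0848) and with DESeq2 (adjusted p = 0.177). Without WT replicate 2 its log2 fold change was 1.11.

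The other C-type members were not called. *Pcdhac1* had 16 and 27 counts in WT, against 24 and 13 in the KO libraries, a log2 fold change of -0.63 (SE 0.40, adjusted p = 0.206). *Pcdhgc5* had 14 and 21 counts in WT, against 24 and 20 in the KO libraries, with a log2 fold change of -0.07 (SE 0.39, adjusted p = 0.894), and its libraries overlapped. These were the 2 least counted C-type members, and their SE was close to the size of the *Pcdhgc3* change, so that such a change was not detectable at this depth. The same promoters that lack the common sequence element, those of *Pcdhac2*, *Pcdhgc4*, *Pcdhgc5* and *Pcdhb1*, thus gave 2 members that rose, 1 that was not called and 1 that was not tested.

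In the alpha class, the 13 alpha symbols other than the C-type, 11 were tested, 3 fell, 1 rose, and the median log2 fold change was -0.76. Over all tested genes, 23.8% were called lower and 24.1% higher. The members that fell were next to each other on the chromosome, and the member that rose was the next one along. The share of 50-base stretches found in another member was 10.1% for *Pcdha9*, 15.1% for *Pcdha10*, 18.4% for *Pcdha11* and 13.3% for *Pcdha12*. The alpha class ranged from 10.1% to 23.4%, and reads shared between these neighbours were not tested. *Pcdha11* had 82 and 76 counts in WT, against 39 and 27 in the KO libraries, or 5.14 ± 0.512 CPM against 1.61 ± 0.000725, with a log2 fold change of -1.67 (SE 0.26, adjusted p = 5.38e-05), the largest fall of all members. *Pcdha10* had 44 and 37 counts in WT, against 28 and 16 in the KO libraries, a log2 fold change of -1.30 (SE 0.33, adjusted p = 0.0037), and its call was lost only without WT replicate 1 (adjusted p = 0.0869). *Pcdha9* had 42 and 48 counts in WT, against 33 and 25 in the KO libraries, a log2 fold change of -1.04 (SE 0.30, adjusted p = 0.00855). The call of *Pcdha9* was lost without WT replicate 1 (adjusted p = 0.0516), without WT replicate 2 (0.0989) and with DESeq2 (0.0839). *Pcdha12* had 69 and 65 counts in WT, against 232 and 116 in the KO libraries, or 4.36 ± 0.385 CPM against 8.24 ± 1.88. Its log2 fold change was 0.93 (SE 0.22, adjusted p = 0.00165), between 0.67 and 1.14 when any 1 library was left out. The first exon of *Pcdha11* lies at 37010752 to 37013251 and that of *Pcdha12* at 37020149 to 37022623, and both are overlapped on the other strand by 1 antisense gene (Gm10545), whose reads could be counted with either of them.

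The remaining alpha members had between 7 and 89 counts per library, and none was called. *Pcdha6* (13 and 23 counts in WT, against 16 and 9 in the KO libraries), *Pcdha7* (14 and 23, against 19 and 10) and *Pcdha1* (28 and 25, against 31 and 9) lay lower in CPM in both *Patz1* KO libraries, with log2 fold changes of -0.93, -0.76 and -0.84 and adjusted p of 0.093, 0.152 and 0.0954. *Pcdha1* was called lower when *Patz1* KO replicate 1 was left out (log2 fold change -1.66, adjusted p = 0.00992). *Pcdha8* (-0.46), *Pcdha3* (-0.26) and *Pcdha2* (-0.06) overlapped between genotypes. *Pcdha5* was the other alpha member with a value above 0, with 37 and 35 counts in WT, against 78 and 47 in the KO libraries and a log2 fold change of 0.37 (adjusted p = 0.279).

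Within the alpha cluster, the shares of the members in the cluster's counts changed more than the total. *Pcdha12* made up 13.3% ± 1.1 of alpha counts in WT and 28.1% ± 1.8 in *Patz1* KO. *Pcdha11* made up 15.6% ± 1.5 in WT and 5.6% ± 0.92 in *Patz1* KO, so that the most counted alpha member in WT was *Pcdha11* and in *Patz1* KO *Pcdha12*. *Pcdha9*, *Pcdha10* and *Pcdha11* together, a group chosen after their values were seen, went from shares of 34.1% and 30.9% in the WT cultures to shares of 12.7% and 15.7% after loss of *Patz1*. The C-type members took 8.94% and 14.4% of alpha counts in WT, against 16.8% and 16.9% in *Patz1* KO. The summed level of the alpha cluster was 33.0 and 32.7 CPM in WT and 32.5 and 25.7 in *Patz1* KO, a ratio of 0.886, and the difference was smaller than the SD of the *Patz1* KO libraries (4.77 CPM). Without *Pcdha12*, the summed alpha class was 24.7 ± 1.05 CPM in WT and 16.0 ± 2.12 in *Patz1* KO, a ratio of 0.647.

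**Figure D3:**
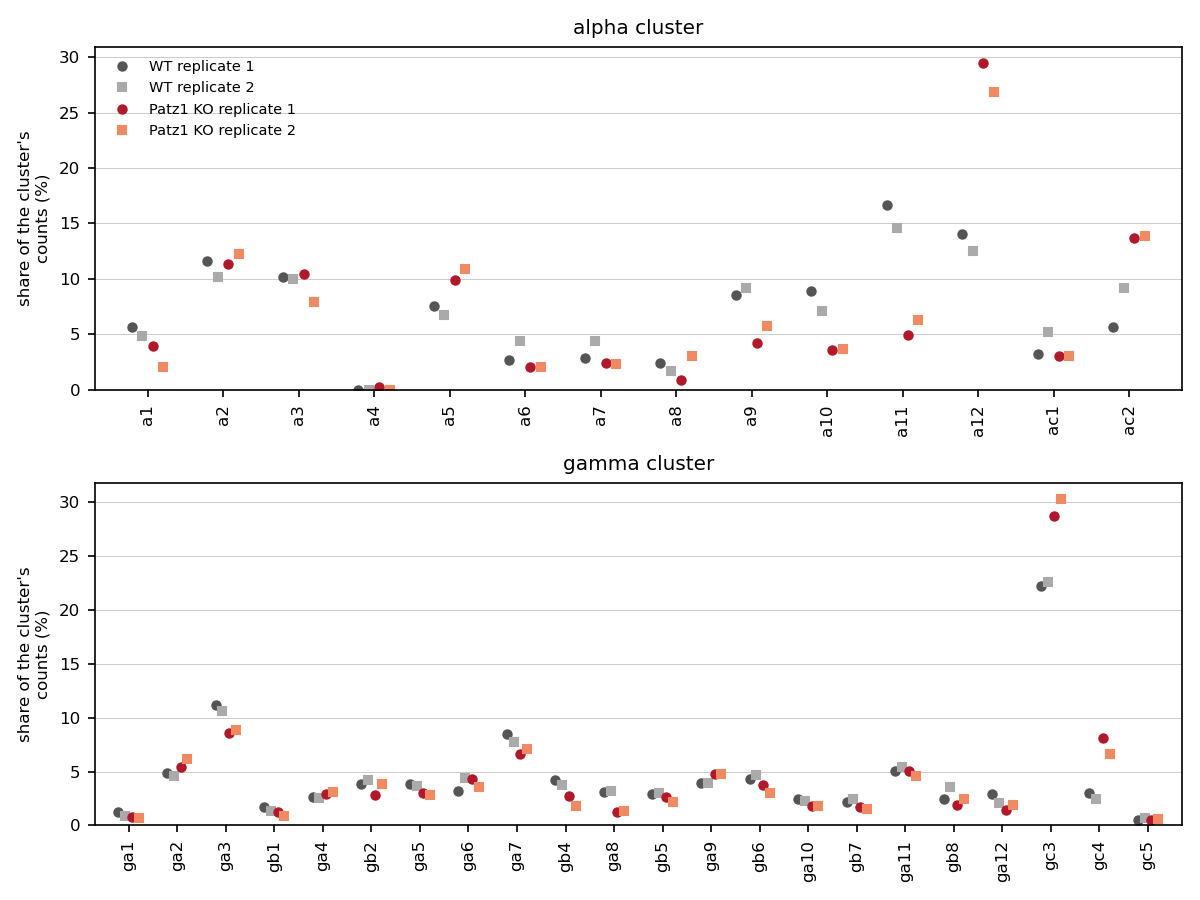
Share of each member in the counts of its cluster, in percent, for the alpha cluster and the gamma cluster, one symbol per library (gray for WT, red or orange for *Patz1* KO, circles for replicate 1, squares for replicate 2). *Pcdha12* rises from 13.3% to 28.1% of alpha counts, *Pcdhgc3* from 22.4% to 29.5% and *Pcdhgc4* from 2.71% to 7.35% of gamma counts (means of 2 libraries).

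In the gamma A class, all 12 members were tested, *Pcdhga2* rose, *Pcdhga8* fell, and the median log2 fold change was -0.18. *Pcdhga8* had 85 and 95 counts in WT, against 62 and 45 in the KO libraries, or 5.84 ± 0.19 CPM against 2.62 ± 0.0887. The genotypes were far apart for its replicate spread, with a log2 fold change of -1.16 (SE 0.23, adjusted p = 0.000478). Its first exon, at 37725706 to 37728316, is overlapped by an annotated isoform of *Pcdhgb4* on the same strand and by an antisense gene (Gm37165), so that its counts could be split with them. *Pcdhga2* had 134 and 136 counts in WT, against 270 and 200 in the KO libraries, a log2 fold change of 0.39 (SE 0.16, adjusted p = 0.0494). This rise was at the threshold and was lost without WT replicate 1 (adjusted p = 0.15), without WT replicate 2 (0.253) and without *Patz1* KO replicate 2 (0.0662), and also with library size scaling (0.076), with a minimum of 10 counts in every library (0.0536), after thinning (0.0533) and with DESeq2 (0.181). *Pcdhga9*, at nearly the same value (log2 fold change 0.39, adjusted p = 0.0693), had 108 and 116 counts in WT, against 234 and 157 in the KO libraries and was just past the threshold. It was called higher without the filter on low counts (adjusted p = 0.0489) and without *Patz1* KO replicate 2 (0.0424), and *Pcdhga12* was called lower without *Patz1* KO replicate 2 (log2 fold change -0.64, adjusted p = 0.0315).

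The gamma A members with the highest levels were not called. *Pcdhga3* had 308 and 313 counts in WT, against 424 and 290 in the KO libraries, a log2 fold change of -0.21 (SE 0.12, adjusted p = 0.16). *Pcdhga7* had 234 and 228 counts in WT, against 327 and 231 in the KO libraries, a log2 fold change of -0.14 (SE 0.14, adjusted p = 0.42). Both lay lower in CPM in both *Patz1* KO libraries, but by less than 2 SE.

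All 7 gamma B members had a log2 fold change below 0, between -0.67 and -0.18, with a median of -0.34, and 1 was called. *Pcdhgb4* had 117 and 111 counts in WT, against 137 and 58 in the KO libraries, or 7.41 ± 0.617 CPM against 4.55 ± 1.55, with a log2 fold change of -0.67 (SE 0.23, adjusted p = 0.0218). Its *Patz1* KO libraries differed widely, and the call was lost without WT replicate 1 (adjusted p = 0.108), without *Patz1* KO replicate 2 (0.101) and with DESeq2 (0.0903). Its log2 fold change was -1.09 without *Patz1* KO replicate 1 and -0.38 without *Patz1* KO replicate 2. *Pcdhgb6* was called lower without *Patz1* KO replicate 1 (log2 fold change -0.51, adjusted p = 0.0363). The summed gamma B class was 39.9 and 42.7 CPM in WT and 34.3 and 30.5 in *Patz1* KO, a ratio of 0.784, and gamma B members alternate along the chromosome with gamma A members, whose summed level was 96.5 ± 2.02 CPM in WT and 92.3 ± 1.92 in *Patz1* KO (ratio 0.957).

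The gamma cluster as a whole was 185.4 ± 0.0647 CPM in WT and 199.2 ± 6.66 in *Patz1* KO, a ratio of 1.07. Its C-type members took 25.7% of gamma counts in both WT libraries, against 37.2% and 37.5% in *Patz1* KO. Without them, the gamma cluster was 137.8 ± 0.0694 CPM in WT and 124.7 ± 4.57 in *Patz1* KO, a ratio of 0.905. The share of *Pcdhgc3* went from 22.4% ± 0.29 to 29.5% ± 1.2 and that of *Pcdhgc4* from 2.71% ± 0.42 to 7.35% ± 1.0. The summed C-type level of both clusters was 50.6 and 52.4 CPM in WT and 81.4 and 77.3 in *Patz1* KO, a ratio of 1.54, and 2.07 when *Pcdhgc3* was left out. Most of what rose without *Pcdhgc3* (9.98 to 20.7 CPM) came from *Pcdhgc4* (5.02 to 14.7 CPM).

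**Figure D4:**
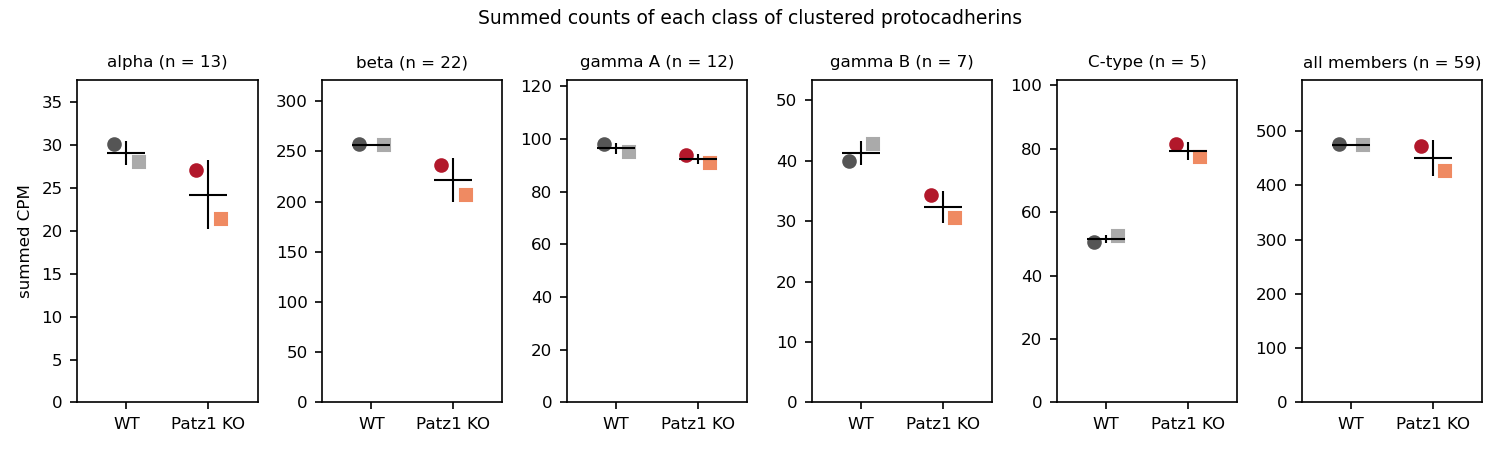
Summed CPM of each class and of all members in each library (circles for replicate 1, squares for replicate 2), with the group mean as a line and the SD of 2 libraries as a bar, each panel on its own axis from 0. The C-type class goes from 51.5 to 79.4 CPM, while gamma B goes from 41.3 to 32.4 and beta from 256.6 to 221.5.

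In the beta cluster, whose genes are single exons and share few long stretches of sequence, 5 of 21 tested members fell, none rose, and the median log2 fold change was -0.29. The share that fell, 23.8%, was that of all tested genes. *Pcdhb15* changed most, with 82 and 77 counts in WT, against 72 and 39 in the KO libraries, or 5.17 ± 0.468 CPM against 2.65 ± 0.456. Its log2 fold change was -0.94 (SE 0.24, adjusted p = 0.00385), with the genotypes apart, and *Pcdhb15* was the only beta member called under all alternatives. *Pcdhb4* had 80 and 72 counts in WT, against 85 and 42 in the KO libraries, with a log2 fold change of -0.69 (SE 0.25, adjusted p = 0.028). *Pcdhb18* had 174 and 197 counts in WT, against 206 and 150 in the KO libraries, with a log2 fold change of -0.47 (SE 0.16, adjusted p = 0.0197). *Pcdhb7* had 157 and 195 counts in WT, against 204 and 149 in the KO libraries, with a log2 fold change of -0.40 (SE 0.16, adjusted p = 0.0486). *Pcdhb19*, the most counted of the 5, had 359 and 374 counts in WT, against 502 and 274 in the KO libraries, with a log2 fold change of -0.35 (SE 0.13, adjusted p = 0.0329).

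The beta calls other than *Pcdhb15* were lost in some of the fits without 1 library. Without WT replicate 1 the adjusted p was 0.208 for *Pcdhb4*, 0.0763 for *Pcdhb7*, 0.0733 for *Pcdhb18* and 0.137 for *Pcdhb19*. Without WT replicate 2 it was 0.0552, 0.408, 0.176 and 0.111 in the same order. These calls were also lost with DESeq2, where the adjusted p was 0.136, 0.206, 0.116 and 0.14. In addition, the call of *Pcdhb7* was lost without *Patz1* KO replicate 1 (0.0866) and after thinning (0.0556), and those of *Pcdhb4* (0.0864) and *Pcdhb19* (0.163) without *Patz1* KO replicate 2. The log2 fold change of *Pcdhb19* was -0.54 without *Patz1* KO replicate 1 and -0.19 without *Patz1* KO replicate 2. In the other direction, 10 beta members were called lower without *Patz1* KO replicate 1, among them *Pcdhb3* (0.0306), *Pcdhb11* (0.0464), *Pcdhb13* (0.00939), *Pcdhb17* (0.00128), *Pcdhb20* (0.0247) and *Pcdhb22* (0.0122), which were not called with all libraries. *Pcdhb3* was also called lower after thinning (0.0378). Under no alternative was a beta member called higher. *Patz1* KO replicate 1, the deepest library, lay closer to WT than *Patz1* KO replicate 2 in the summed beta level, at 236.7 CPM against 206.3, where the WT libraries had 256.8 and 256.4.

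The most abundant beta members were among those not called with all libraries. *Pcdhb22* had 410 and 438 counts in WT, against 725 and 362 in the KO libraries, a log2 fold change of -0.09 (SE 0.13, adjusted p = 0.625). *Pcdhb17* had 384 and 434 counts in WT, against 576 and 325 in the KO libraries, a log2 fold change of -0.29 (SE 0.12, adjusted p = 0.0594), and was lower in CPM in both *Patz1* KO libraries. The genotypes overlapped for *Pcdhb22*, and its neighbour *Pcdhb21* is annotated to overlap it by 455 bases. *Pcdhb2* had the highest value of the beta cluster, with 139 and 170 counts in WT, against 289 and 194 in the KO libraries and a log2 fold change of 0.23 (SE 0.15, adjusted p = 0.233).

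The Spearman correlation of order with log2 fold change, given as a description over members that share libraries, was 0.033 over the 13 tested members of the alpha cluster and 0.11 over the 22 of the gamma cluster, C-type included, and -0.17 over 21 beta members. Without its C-type members the gamma cluster gave -0.26 over 19. *Pcdha11* and *Pcdha12*, which are direct neighbours, had the lowest and the highest value of the alpha cluster.

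The summed level of all 59 members was 475.2 and 474.5 CPM in WT and 473.1 and 426.5 in *Patz1* KO, a ratio of 0.947, and the difference between the *Patz1* KO libraries was larger than that between the genotypes. The summed beta cluster was 256.6 ± 0.274 CPM in WT and 221.5 ± 21.5 in *Patz1* KO, a ratio of 0.863, with both *Patz1* KO libraries below both WT libraries.

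Of the 16 factors linked to promoter choice and looping, 10 were lower in *Patz1* KO and 1 was higher, with a median log2 fold change of -0.27 (23.8% of all tested genes were lower and 24.1% higher, the background for each list that follows). The 10 include the targeted gene *Patz1* itself. *Ctcf*, whose product binds protocadherin promoters and enhancers, had 2392 and 2592 counts in WT, against 2960 and 1899 in the KO libraries (log2 fold change -0.46, adjusted p = 0.000274). Besides *Patz1*, the smallest p of this list were those of *Stag1* (-0.51, adjusted p = 0.00012), a cohesin subunit, and *Pds5a* (-0.48, adjusted p = 0.000153), a cohesin regulator. *Smc1a*, another cohesin subunit, was the gene that rose (0.33, adjusted p = 0.00407). Of 14 genes of DNA methylation and silencing, 6 were lower and 1 higher, led by *Uhrf1* (-0.72, adjusted p = 2.48e-06), *Dnmt1* (-0.59, adjusted p = 2.84e-05) and *Tet1* (-0.48, adjusted p = 0.000635). *Dnmt3b*, whose product methylates clustered protocadherin promoters in the embryo, had 209 and 229 counts in WT, against 188 and 156 in the KO libraries (-0.75, adjusted p = 0.00073).

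Of 24 tested genes of protein partners and downstream signalling, 6 were higher and 5 lower, a share close to the 47.9% of all tested genes called, with a median log2 fold change of 0.0059. The smallest p were those of *Brk1* (0.91, adjusted p = 3.94e-07) and *Cyfip1* (-0.63, adjusted p = 2.02e-05), both subunits of the WAVE complex that binds protocadherin tails and drives actin branching, and of the synaptic adhesion gene *Nlgn2* (0.68, adjusted p = 1.43e-05). The list had no common direction.

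Of 12 protocadherins outside the clusters, 4 were lower and 2 higher, with a median log2 fold change of -0.13. *Pcdh19* (-1.38, adjusted p = 2.92e-08), *Pcdh18* (-1.19, adjusted p = 4.84e-08) and *Pcdh7* (-0.53, adjusted p = 0.000197) had the smallest p. Of 17 tested classical cadherins, 6 were higher and 5 lower, with a median of 0.062. *Cdh1*, the epithelial cadherin (-3.02, adjusted p = 6.48e-10), *Cdh8* (-2.30, adjusted p = 1.71e-06) and *Cdh3* (-3.05, adjusted p = 8.93e-06) had the smallest p, and their falls were larger than that of any clustered protocadherin. Among 17 tested genes next to the clusters on chromosome 18, 5 were higher and 7 lower, with a median of -0.087, led by *Apbb3* (0.72, adjusted p = 9.51e-05), *Tmco6* (0.88, adjusted p = 0.00013) and *Fchsd1* (0.84, adjusted p = 0.000641). *Taf7*, which lies between the beta and gamma clusters, was lower (-0.31, adjusted p = 0.0146), and *Diaph1*, past the gamma cluster, was not called (-0.09, adjusted p = 0.587).

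**Figure D5:**
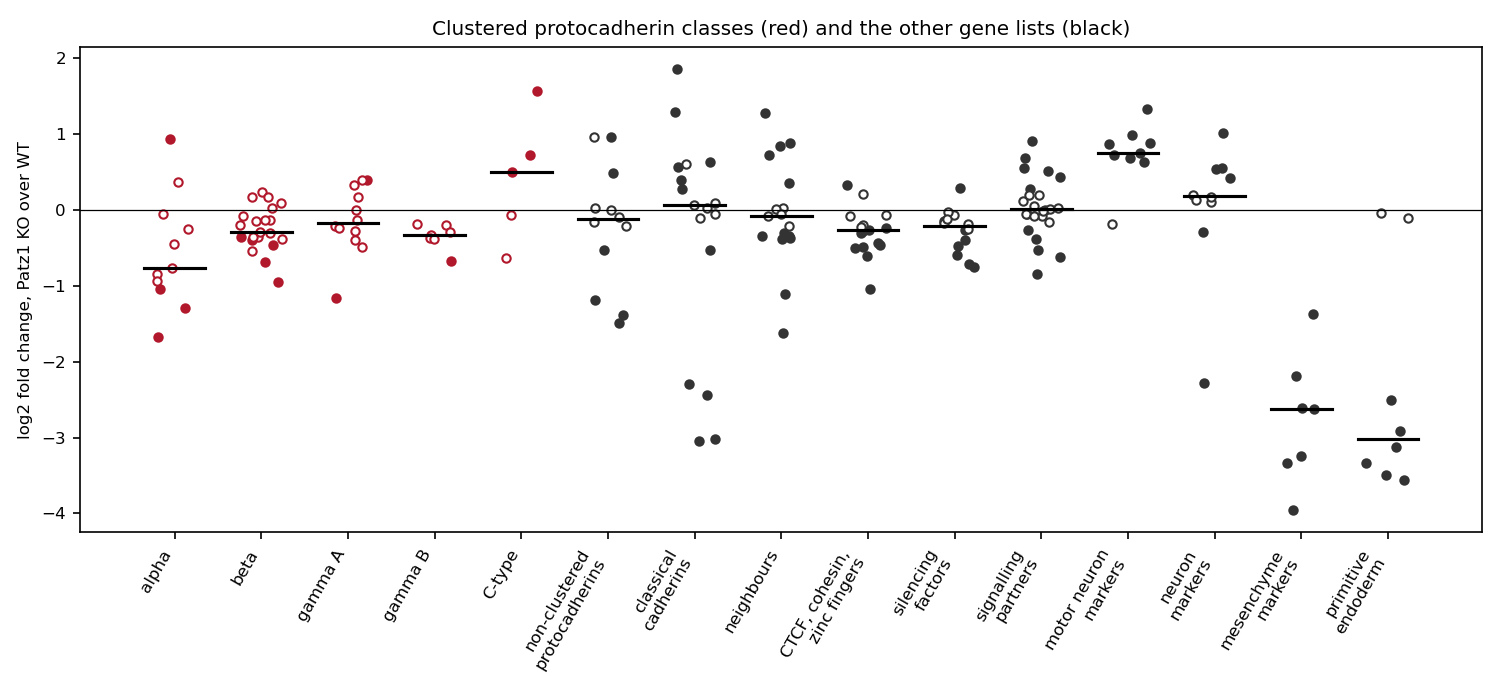
Log2 fold change (*Patz1* KO over WT) of each tested gene of the clustered protocadherin classes (red) and of 10 other lists (black), filled where called at an adjusted p below 0.05 and open where not, with the median as a line and sideways scatter only for legibility. The medians are -0.76 for alpha, -0.29 for beta, -0.18 for gamma A, -0.34 for gamma B and 0.50 for C-type members, against 0.75 for MN markers, -2.63 for mesenchyme markers and -3.02 for primitive endoderm markers.

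Of the other cell type lists, general neuron markers were higher for 4 of 10 and lower for 2, led by *Nefm* (-2.28, adjusted p = 2.45e-11), *Dcx* (1.01, adjusted p = 1.17e-06) and *Syt1* (0.55, adjusted p = 0.000124), with a summed level of 4851 to 5200 CPM in WT and 6557 to 6905 in *Patz1* KO. The markers of neural progenitors were higher for 3 of 9 and lower for 3, with *Sox1* (1.03, adjusted p = 1.77e-06), *Hes5* (-0.99, adjusted p = 9.13e-07) and *Pax6* (-1.05, adjusted p = 2.91e-06) having the smallest p and summed levels of 2082 to 2201 CPM in WT and 2127 to 2173 in *Patz1* KO. The markers of interneurons were higher for 5 of 9 and lower for 1, among them *Lhx5* (3.14, adjusted p = 2.2e-06) and *Nkx2-2* (1.21, adjusted p = 4.84e-06), with summed levels of 37.8 to 38.5 CPM in WT and 54.8 to 55.7 in *Patz1* KO. Pluripotency markers were low in all libraries (7.92 to 10.4 CPM in WT, 6.43 to 7.33 in *Patz1* KO), with 1 of 4 tested lower (*Dppa5a*, -1.71, adjusted p = 0.0118). In the lists named above, the genes with the smallest p were *Prph* (1.33, adjusted p = 3.26e-09), *Chat* (0.99, adjusted p = 3.4e-07) and *Mnx1* (0.88, adjusted p = 5.25e-07) for MNs, *Col3a1* (-3.24, adjusted p = 1.36e-12), *Pdgfra* (-3.96, adjusted p = 2.45e-11) and *Foxc1* (-3.34, adjusted p = 1.2e-07) for mesenchyme, and *Dab2* (-3.34, adjusted p = 1.93e-09), *Cubn* (-2.92, adjusted p = 9.48e-08) and *Gata4* (-3.49, adjusted p = 2.02e-07) for primitive endoderm.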

How the data were processed

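Stranded RNA-seq libraries of total RNA without ribosomal RNA were read from 4 deposited files, 2 per genotype, whose values are raw counts of reads per gene symbol made by the authors on mm10. The submitters' processing notes name TopHat2 2.1.1, Bowtie2 2.3.1, featureCounts 1.6.2 and DESeq2. The annotation, strand setting and handling of ambiguous reads are not given in the sources used here, and affect members that share exons or overlap other genes. Groups came from the sample titles. The study calls its replicates biological, but where nothing ties libraries to separate KO clones, p values measure the spread between these libraries.

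Counts of all 23420 symbols were filtered (filterByExpr, minimum count 10), scaled with TMM and tested by genotype with edgeR's quasi-likelihood test (edgeR 4.0.16, limma 3.58.1, R 4.3.3), Benjamini-Hochberg adjusted over 14269 genes. The SE was derived from the log2 fold change and the F statistic. Exons, positions and lengths came from GENCODE M21 and RefSeq, of whose entries 57 members were matched by accession and 1 by symbol. With 2 libraries per group, an exact permutation test of 1 gene cannot pass 0.05. The SE takes in counting error and the spread between these libraries only, and the detection limit of 3 counts per library was a fixed setting.

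The members and the gene lists were chosen with earlier results of these data known. All members are accounted for. Full statistics were given for called members and the C-type, and for each other list the counts and the 3 genes with the smallest p. 1 gene of these lists is not reported here by name. Other genes were named for their level, place or role after their values were seen. The alternatives were scaling by DESeq2 size factors, by library size or by TMM after removal of the 20 most counted genes, no filter, at least 10 counts in every library, a replicate block, robust estimation, thinning to the smallest library, leaving out each library, and DESeq2's Wald test (DESeq2 1.42.0). GENCODE lengths for beta members were added after the data were seen. Scripts were tested on simulated data. Python 3.11.15, numpy 2.4.6, pandas 2.3.3, scipy 1.17.1 and matplotlib 3.10.9 were used.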

Additional observations from a re-analysis of the deposited data

How the results depend on the processing

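With 2 libraries per group, a fit without 1 library assumes that the lone library varies like the other group, and the low counts of many members limited their precision. Over these 4 fits, 3 to 5 members rose and 3 to 17 fell. DESeq2's Wald test called 3 higher and 4 lower, and thinning 3 higher. With the replicate number as a block, 5 were higher and 11 lower (7363 genes called), and *Pcdhb17* was called (adjusted p = 0.0202). Same-numbered samples had a correlation of deviations of 0.0304, and they share only a number. The other scalings and filters gave 4 to 6 rises and 10 falls, and all class totals kept their direction. Shares of called and C-type members were recomputed with 1 library left out, and all but that of *Pcdhgc5* kept their direction. The *Pcdhgc5* share was 0.507% and 0.712% of gamma counts in WT, against 0.485% and 0.613% in *Patz1* KO. Its direction turned without WT replicate 2 and without *Patz1* KO replicate 1. The sign of 11 members that were not called with all libraries turned. With 1 library left out, the log2 fold change spanned -0.29 to 0.21 for *Pcdhgc5*, -0.17 to 0.045 for *Pcdha2*, -0.70 to 0.036 for *Pcdha3*, -1.22 to 0.19 for *Pcdha8*, -0.022 to 0.092 for *Pcdhb5*, -0.49 to 0.31 for *Pcdhb9*, -0.40 to 0.059 for *Pcdhb21*, -0.35 to 0.13 for *Pcdhb22*, -0.40 to 0.00079 for *Pcdhgb2*, -0.054 to 0.45 for *Pcdhga6* and -0.11 to 0.090 for *Pcdhga11*. Elsewhere it turned for *Pcdhgc5* (0.31) and *Pcdhga6* (-0.012) after thinning, *Pcdhb5* with library size alone (-0.0011), and *Pcdhga11* without the filter (0.016) and with DESeq2 (0.0014). The cause was not tested.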
